A study of Mus musculus with 4 samples.

Results

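The genes described here are *Oma1*, which encodes a stress-activated protease of the inner mitochondrial membrane, and 9 genes of the integrated stress response that mitochondria can set off: *Eif2ak1*, *Atf4*, *Atf5*, *Ddit3*, *Trib3*, *Asns*, *Psat1*, *Mthfd2* and *Shmt2*. They were chosen by symbol, and *Oma1* was selected on its lower values in these same *Foxq1* cKO samples, so the differences of the members are given as a description with no test. Of the 10 symbols, 8 had a row among the 12693 gene symbols of the deposited table, and the expression of *Trib3* and *Mthfd2* was not analysed here. RNA-seq covered 2 wild-type samples and 2 *Foxq1* cKO samples of mouse brain at embryonic day 18 (E18), all on the C57BL/6 strain. The genotype label of the *Foxq1* cKO samples is FOXQ1fl/fl;Tie2-Cre, a floxed *Foxq1* gene cut by a Cre recombinase under the *Tie2* promoter, which is active in endothelial cells and also in blood cell lineages. In the study's methods the controls are littermates without the Cre transgene, and whether the controls sequenced here carried the floxed allele is not given in the sources used here. The labels give the tissue as brain and the material as total RNA, and the paper describes Smart-seq2, an amplification protocol for small amounts of RNA, on cortex cells sorted for the endothelial surface protein CD31. No label says whether a sample is 1 embryo or a pool, so every p-value measures only the spread between these samples.

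OMA1 is held in check in healthy mitochondria and becomes active when the membrane potential falls. It then cuts OPA1, the fusion protein of the inner membrane, and DELE1, whose fragment leaves the mitochondrion and activates HRI, the kinase encoded by *Eif2ak1*. HRI phosphorylates the translation initiation factor eIF2alpha, which lowers protein synthesis in general and raises translation of the *Atf4* and *Atf5* messages. ATF4 and its partners then switch on genes for amino acid synthesis, amino acid transport and one-carbon metabolism, and activity of ATF4 is set to a large extent by translation, which RNA-seq does not measure.

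Depth was between 15827166 and 21466436 reads on listed genes per sample. The authors deposited normalized counts, reads per gene divided by 1 size factor per sample, and 100% of the values in every sample were whole multiples of the value of 1 read, so reads could be recovered. The targeted gene *Foxq1* was lower in both samples labelled *Foxq1* cKO, at 5.44 and 32.6 normalized counts against 353 and 297 in wild-type. All 14 endothelial markers fixed for the check had a row and summed to 1.96% to 2.32% of all normalized counts. Some other lists were incomplete, and their sums leave out the markers without a row. Pericyte and smooth muscle markers (9 of 12 with a row, without *Acta2*, *Tagln* and *Myh11*) summed to 0.840% to 0.912%. Radial glia and astrocyte markers summed to 0.176% to 0.188%, and microglia and macrophage markers to 0.0437% to 0.0721%. Erythroid markers (7 of 14 with a row) summed to 0.0884% to 0.119%. Neuron markers (10 of 12) summed to 0.0282% to 0.0376% and oligodendrocyte precursor markers (2 of 4) to 0.00768% to 0.0184%. Transcripts of the vessel wall outside the endothelium were thus present, with the pericyte gene *Rgs5* between 89160 and 93040 normalized counts and the endothelial gene *Cldn5* between 126700 and 152000.

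The promoters were examined for features that the choice of members did not use. ATF4, bound with a C/EBP partner, recognizes the C/EBP-ATF response element (CARE), and the forkhead proteins, FOXQ1 among them, share a core motif. RefSeq windows from 250 bases before to 50 bases after each annotated start (GRCm38.p6) were available for all 10 members, 12 windows in all, and were searched on both strands for the CARE core TGATGNAA and the forkhead core TGTTTA. The CARE core was found in the windows of *Asns* and *Trib3*, and 3.97% of the 32851 windows in the table hold it. The forkhead core was found in the windows of *Shmt2* and *Trib3*, and 13.4% of all windows hold it. Neither motif has a match in the window of *Oma1*, which says only that these letters are not in this window, and other forms of the forkhead motif were not searched. The sequences that carry these matches are shown because they place *Asns* and *Trib3* beside the response element of the pathway. Each is 30 bases, read 5′ to 3′ along the gene, with the match in capitals. A match on the opposite strand appears as its reverse complement, and positions count from the start site.
*Asns*, CARE core at -23 to -16, chr6:7693214-7693243, minus strand: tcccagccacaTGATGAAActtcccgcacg
*Trib3*, CARE core at 15 to 22, opposite strand, chr2:152344028-152344057, minus strand: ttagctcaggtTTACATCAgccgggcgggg
*Trib3*, forkhead core at -225 to -220, opposite strand, chr2:152344268-152344297, minus strand: tgacgagattttTAAACAgcctccgttcat
*Shmt2*, forkhead core at -237 to -232, opposite strand, chr10:127522664-127522693, minus strand: accacacgaaaaTAAACAaacaaacaaaca

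*Oma1* stood at 441 and 593 normalized counts in wild-type against 124 and 179 in *Foxq1* cKO. Both *Foxq1* cKO values lay below both wild-type values, and within each group the higher sample was 1.35 times (wild-type) or 1.44 times (*Foxq1* cKO) the lower. The *Foxq1* cKO mean was 29.3% of the wild-type mean, a log2 difference of -1.77 (standard error 0.534) on log2 of the normalized count plus 1. Of the 12472 genes with a mean of at least 10 normalized counts, 281 (2.25%) had a lower log2 difference. In bulk RNA, fewer cells of a type and less RNA per cell cannot be told apart. The 14 endothelial markers summed to 420200 and 386100 normalized counts in wild-type against 337000 and 374400 in *Foxq1* cKO, lower in both, though as a share of all normalized counts (2.32% and 2.16% against 1.96% and 2.17%) the groups overlapped. The 12 microglia and macrophage markers summed to 10010 and 12860 normalized counts in wild-type against 7532 and 8631 in *Foxq1* cKO, again without overlap. The 11 radial glia and astrocyte markers summed to 34050 and 33490 against 32040 and 30360, also lower in both *Foxq1* cKO samples. Only *Gfap* of these had an unadjusted p under 0.05, with 3073 and 2420 normalized counts against 1081 and 1329 (log2 difference -1.19, standard error 0.25, unadjusted p = 0.0031 and adjusted p = 0.857 from limma). *Pax6*, *Slc1a3*, *Hes5* and *Aldoc* were lower in both *Foxq1* cKO samples too. *Nes*, *Aqp4* and *Hopx* were higher in both, *Nes* with 5293 and 5639 normalized counts against 8608 and 6317. At that threshold 2 endothelial markers and 1 microglia and macrophage marker were lower and none of these was higher, beside 3.05% of all genes lower and 2.17% higher. The part of these cells in the value of *Oma1* was not tested.

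*Eif2ak1* had 890 and 626 normalized counts in wild-type against 1476 and 1019 in *Foxq1* cKO samples. The transcript of the kinase that relays the signal of OMA1 was therefore higher in both *Foxq1* cKO samples, with a mean 1.65 times that of wild-type and a log2 difference of 0.72 (standard error 0.349). HRI is best known in red cell precursors, where it senses haem. The erythroid markers, of which 7 of 14 had a row, did not separate the groups, with sums of 20860 and 15770 in wild-type against 16020 and 20520 in *Foxq1* cKO. The exons of *Eif2ak1* overlap *Aimp2* over 487 bp and *Ankrd61* over 172 bp on the opposite strand, and the sources used here do not state that counting used the strand.

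*Atf4*, the central transcription factor of the response, had 3686 and 2853 normalized counts in wild-type against 2409 and 2576 in *Foxq1* cKO. Its *Foxq1* cKO mean was 76.2% of the wild-type mean, with a log2 difference of -0.38 (standard error 0.211) and no overlap between the groups. *Atf5*, the related factor tied to the mitochondrial unfolded protein response, was counted on 1 and 25 reads in wild-type against 18 and 33 reads in *Foxq1* cKO. Its groups overlapped, and its log2 difference of 1.95 (standard error 1.51) was 0.04 without wild-type replicate 1, the sample with 1 read. It was 1.05 in edgeR and DESeq2 on the recovered reads and 1.22 with a pseudocount of 5. *Ddit3*, which encodes CHOP, a factor tied to cell death under long stress, had 273 and 123 normalized counts in wild-type against 20.7 and 274 in *Foxq1* cKO. *Foxq1* cKO replicate 1 alone was low, and the log2 difference of -1.25 (standard error 1.29) became 0.58 without it and -3.09 without *Foxq1* cKO replicate 2. With all samples kept it was -0.42 in edgeR and -0.43 in DESeq2. Exons of *Ddit3* overlap *Mars* over 68 bp on the opposite strand, and those of *Atf5* overlap *Nup62* and *Il4i1* over 82 bp. A second annotated entry also named *Ddit3* overlaps the exons of *Ddit3* over 105 bp on the same strand.

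Among the enzymes, *Asns*, which makes asparagine and is a classic target of ATF4, had 1620 and 1511 normalized counts in wild-type against 2403 and 2042 in *Foxq1* cKO. Both *Foxq1* cKO samples were higher, by 1.42 times in the mean, with a log2 difference of 0.50 (standard error 0.224). Among the members, the profile of *Asns* over the 4 samples was closest to that of *Eif2ak1*. The root mean square difference between their centred log2 values was 0.208. Only these 2 members had both *Foxq1* cKO values above both wild-type values. Their likeness uses the same contrast with which the members were chosen, and it carries no test. *Psat1*, the transaminase of serine synthesis, had 1973 and 1168 normalized counts in wild-type against 882 and 1880 in *Foxq1* cKO. Its groups overlapped, and the log2 difference of -0.24 (standard error 0.448) ranged from -0.78 to 0.31 with each sample left out. *Shmt2*, which moves a one-carbon unit from serine in mitochondria, had 1367 and 1595 normalized counts against 1465 and 2187, again with overlap and with a log2 difference of 0.28 (standard error 0.285). Of the 3 enzymes, only *Asns* had separate groups.

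**Figure D1:**
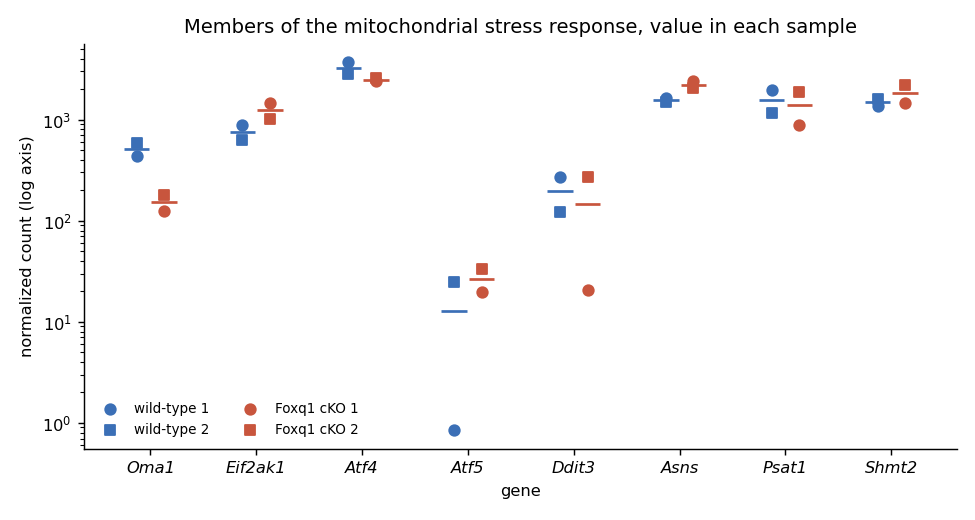
Normalized count of each of the 8 members (log axis) in every sample, with circles for replicate 1, squares for replicate 2, blue for wild-type, red for *Foxq1* cKO and bars for group means. The groups are separate for *Oma1*, *Eif2ak1*, *Atf4* and *Asns*, and the low points of *Atf5* and *Ddit3* are single samples.

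Over the 8 members, 2 had *Foxq1* cKO values that were all above the wild-type values, 2 had values all below, and 4 overlapped. Among all genes tested, 18% were separate in the higher direction and 18% in the lower direction, and since the members were picked with this contrast in view nothing is read from their count. The median log2 difference over the 8 members was 0.02, beside 0.009 over all genes tested. When single samples were dropped, the difference ranged from -2.03 to -1.51 for *Oma1*, from 0.45 to 0.98 for *Eif2ak1*, from -0.56 to -0.20 for *Atf4* and from 0.38 to 0.62 for *Asns*. No exact permutation test (two-sided) on 2 against 2 samples can go under p = 0.333.

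**Figure D2:**
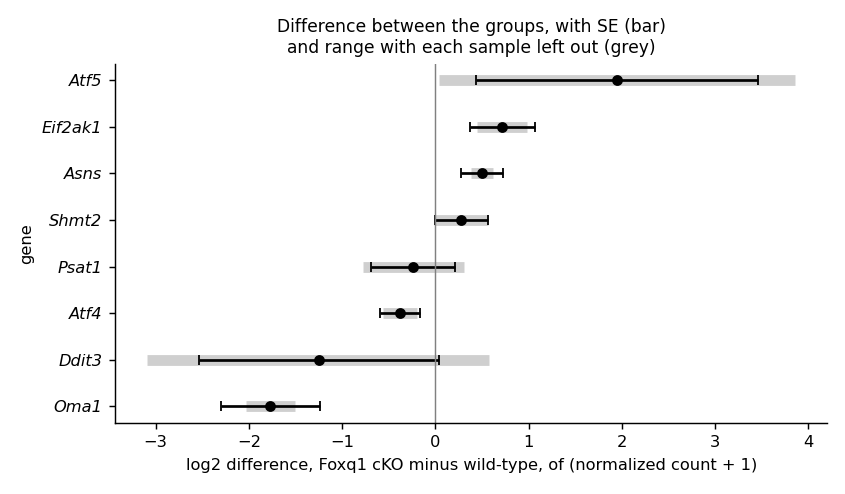
Log2 difference between *Foxq1* cKO and wild-type for the 8 members (points), with the standard error from limma (black bars) and the range when each sample is left out in turn (grey). *Oma1* lies between -2.03 and -1.51 in these ranges, while those of *Ddit3*, *Psat1* and *Shmt2* span 0.

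Levels were compared between genes per kilobase of merged exons (GENCODE M21). In wild-type, *Atf4* was the most abundant member at 1390 normalized counts per kb. It was followed by *Asns* (573 per kb), *Shmt2* (476 per kb), *Psat1* (369 per kb), *Oma1* (241 per kb), *Eif2ak1* (134 per kb), *Ddit3* (115 per kb) and *Atf5* (6.46 per kb). The wild-type samples of *Shmt2* and *Psat1*, of *Psat1* and *Oma1*, and of *Eif2ak1* and *Ddit3* overlapped, and the other neighbours in this order were separate. The order of *Oma1* and *Eif2ak1* differed between the groups, with 206 and 277 per kb for *Oma1* against 157 and 110 for *Eif2ak1* in wild-type, and 57.9 and 83.5 against 260 and 180 in *Foxq1* cKO. The *Foxq1* cKO mean of *Oma1*, 70.7 per kb, was also below that of *Ddit3*, 85.9 per kb, whose samples lay on either side of it. The level of *Atf5* was above that of 3.53% of the genes with a known length, and that of *Atf4* above 95.3%.

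The 9 lists of textbook genes of the response and its neighbouring pathways gave 96 genes besides the members that could be tested with limma. In them 1 gene was higher and 4 were lower at an unadjusted p under 0.05, which is 5.21% of the 96. Over all genes tested the shares were 2.17% higher and 3.05% lower. Groups were separate for 25 of the 96 in the lower and 12 in the higher direction, beside 18% of all genes in each. The median log2 difference of the 96 was -0.119, beside 0.009 over all genes tested. The lists were chosen with earlier results of these data known, so these counts carry no test. After Benjamini-Hochberg adjustment limma called 0% of all genes and edgeR 0%, and DESeq2 on the recovered reads called 59 genes, or 0.473%. None of the 96 genes had an adjusted p under 0.05 by limma, edgeR or DESeq2. The targeted gene *Foxq1*, at a log2 difference of -4.47, had an adjusted p of 0.857 from limma. With 2 samples in each group, the absence of calls therefore does not show that these genes were unchanged.

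The relay from the mitochondrion gave 8 other genes, 2 higher and 1 lower without overlap, beside 18% of all genes in each direction. *Dele1*, which encodes the protein that OMA1 cuts to pass the signal on, had 1440 and 1580 normalized counts in wild-type against 1733 and 2038 in *Foxq1* cKO, a log2 difference of 0.32 (standard error 0.233). *Opa1*, the other substrate, had 1791 and 1572 against 901 and 1882, so that *Foxq1* cKO replicate 1 stood below the other samples, and its log2 difference of -0.37 was the lowest of the list. The highest was 0.32 for *Htra2*, a protease of the intermembrane space. No gene of the 8 passed an unadjusted p of 0.05, and their median log2 difference was 0.06, beside 0.009 over all genes.

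The kinases, phosphatases and eIF2 and eIF2B subunits that set and read the phosphorylation of eIF2alpha held 16 other genes, and none passed an unadjusted p of 0.05. Their log2 differences ran from -0.63 (standard error 0.915) for *Eif2ak3*, the kinase PERK of the endoplasmic reticulum, to 0.84 (standard error 0.422) for *Eif2b5*, the catalytic subunit of eIF2B. *Eif2b5* had 436 and 431 normalized counts in wild-type against 1027 and 585 in *Foxq1* cKO, with separate groups. *Ppp1r15a*, the phosphatase subunit GADD34 that ATF4 and CHOP induce, had 1236 and 1564 against 1735 and 1513, with overlap. The median of the list was -0.02.

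In the list of transcription factors, 4 genes besides the members were measured, none passed an unadjusted p of 0.05 and the median was -0.16. *Atf3*, a factor induced downstream of ATF4, had 854 and 995 normalized counts in wild-type against 602 and 848 in *Foxq1* cKO (log2 difference -0.37, standard error 0.338). *Nupr1*, a stress-induced chromatin regulator, had the highest value of the list at 0.24 (standard error 0.628), with overlapping groups.

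Of the 12 other enzymes of serine, glycine, asparagine and one-carbon metabolism, none passed an unadjusted p of 0.05, 4 were lower without overlap and none was higher without overlap, beside 18% of all genes in each direction. The extremes were *Mthfd2l*, a mitochondrial folate enzyme, at -2.07 (standard error 1.02) and *Gpt2*, the mitochondrial alanine transaminase, at 1.47 (standard error 0.968). *Mthfd2l* had 56.5 and 254 normalized counts in wild-type against 29.4 and 26.5 in *Foxq1* cKO, and its log2 difference was -0.99 without wild-type replicate 2 and -3.14 without wild-type replicate 1. *Gpt2* had 61.5 and 465 against 511 and 437, and without wild-type replicate 1 its log2 difference was 0.02. *Phgdh*, the first enzyme of serine synthesis, had 5929 and 4071 against 3982 and 3862, lower in both *Foxq1* cKO samples with a log2 difference of -0.32 (standard error 0.221) that was -0.05 without wild-type replicate 1. The median of the list was -0.06, and edgeR and DESeq2 each gave 1 gene of the 12 an unadjusted p under 0.05.

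Of the 8 measured amino acid transporters that ATF4 induces, *Slc1a5*, which carries glutamine, and *Slc1a4*, which carries alanine, serine and cysteine, fell at an unadjusted p under 0.05. None rose, beside 3.05% of all genes lower and 2.17% higher. Groups were separate for 3 genes in the lower and 1 in the higher direction, beside 18% of all genes in each direction. The median of the list was -0.25, beside 0.009 over all genes. *Slc1a5* had 1425 and 1140 normalized counts in wild-type against 667 and 690 in *Foxq1* cKO, a log2 difference of -0.91 (standard error 0.297, unadjusted p = 0.0219 and adjusted p = 0.857 from limma). *Slc1a4* had 40300 and 36680 against 29520 and 32020, a log2 difference of -0.32 (standard error 0.106, unadjusted p = 0.0225 and adjusted p = 0.857 from limma). Leaving out wild-type replicate 1, *Foxq1* cKO replicate 1 or *Foxq1* cKO replicate 2 took the limma p of *Slc1a5* to 0.0914, 0.0874 and 0.0775. Leaving out wild-type replicate 1 or *Foxq1* cKO replicate 1 took that of *Slc1a4* to 0.106 and 0.109, and with all samples kept eBayes without a trend took it to 0.313. *Slc7a11*, the cystine transporter, had the lowest log2 difference at -1.07 (standard error 0.664) and did not pass, and *Slc7a1*, the carrier of cationic amino acids, had the highest at 0.29 (standard error 0.134). *Slc3a2*, the heavy chain shared by several of these carriers, had 27390 and 30280 against 25550 and 30930 normalized counts.

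Of 12 cytosolic aminoacyl-tRNA synthetases, which load amino acids onto their tRNAs, 6 were lower without overlap and none was higher without overlap, beside 18% of all genes in each direction. At an unadjusted p of 0.05 only *Eprs*, the synthetase for glutamate and proline, passed. It had 5039 and 5153 normalized counts in wild-type against 3916 and 3342 in *Foxq1* cKO, with a log2 difference of -0.49 (standard error 0.171, unadjusted p = 0.0273 and adjusted p = 0.857 from limma). Without wild-type replicate 1, wild-type replicate 2 or *Foxq1* cKO replicate 2 the limma p was 0.0631, 0.0783 and 0.15, and with all samples kept it was 0.159 with eBayes without a trend and 0.0518 after quantile normalization. The list ran from -0.68 for *Vars*, the valine enzyme, to 0.40 for *Nars*, the asparagine enzyme, with a median of -0.24.

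Of 14 other stress effectors that ATF4 induces, 7 had a row, and none passed an unadjusted p of 0.05. *Sesn2*, a brake on mTORC1, had the lowest log2 difference at -1.13 (standard error 0.574), with 763 and 1206 normalized counts in wild-type against 260 and 731 in *Foxq1* cKO. Its log2 difference was -0.39 without *Foxq1* cKO replicate 1 and -1.88 without *Foxq1* cKO replicate 2. *Tnfrsf10b*, a death receptor that CHOP induces, had the highest at 0.76 (standard error 0.973), with overlap. The median was -0.23.

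The list of chaperones and proteases of the mitochondrial matrix, the classic readout of the mitochondrial unfolded protein response, gave a median of 0.07 over 10 genes, with none past an unadjusted p of 0.05. The list also held *Hspa14*, a cytosolic HSP70 relative outside the matrix (log2 difference 0.14), and the median without *Hspa14* was not computed. *Hspd1*, which encodes the chaperonin HSP60, had 5257 and 6872 normalized counts against 4937 and 5227, and *Hspe1*, its co-chaperonin, had 909 and 788 against 1166 and 982. These partners thus lay on opposite sides, at -0.24 (standard error 0.185) and 0.34 (standard error 0.294), and neither passed. The ends of the list were *Trap1* at -0.39 and *Dnaja3* at 0.48.

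Outside ATF4, the unfolded protein response of the endoplasmic reticulum gave 1 gene higher and 1 lower of 19 at an unadjusted p under 0.05. Over all genes tested the shares were 2.17% higher and 3.05% lower. Groups were separate for 3 genes in the higher and 4 in the lower direction, beside 18% of all genes in each direction. *Calr*, the lectin chaperone calreticulin, fell from 11230 and 13060 to 9190 and 9563 normalized counts (log2 difference -0.37, standard error 0.138, unadjusted p = 0.0358 and adjusted p = 0.857 from limma). *Hyou1*, an HSP70-like chaperone, rose from 190 and 618 to 1027 and 910 (log2 difference 1.49, standard error 0.604, unadjusted p = 0.0478 and adjusted p = 0.857 from limma), with the wild-type samples far apart. Without wild-type replicate 1 the log2 difference of *Hyou1* was 0.64 with a limma p of 0.135, and without *Foxq1* cKO replicate 1 or 2 the p was 0.175 and 0.136. With all samples kept the p of *Hyou1* was 0.0788 in edgeR and 0.096 with eBayes without a trend. For *Calr* the p was 0.174, 0.136 and 0.0945 without wild-type replicate 2, *Foxq1* cKO replicate 1 and *Foxq1* cKO replicate 2. With all samples kept it was 0.142 after quantile normalization (log2 difference -0.23) and 0.264 with eBayes without a trend. *Hspa5*, which encodes the main chaperone BiP, had 14340 and 15490 normalized counts against 14000 and 14380. The lowest value of the list was -0.57 for *Atf6*, a sensor of the response, and the median was -0.07.

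**Figure D3:**
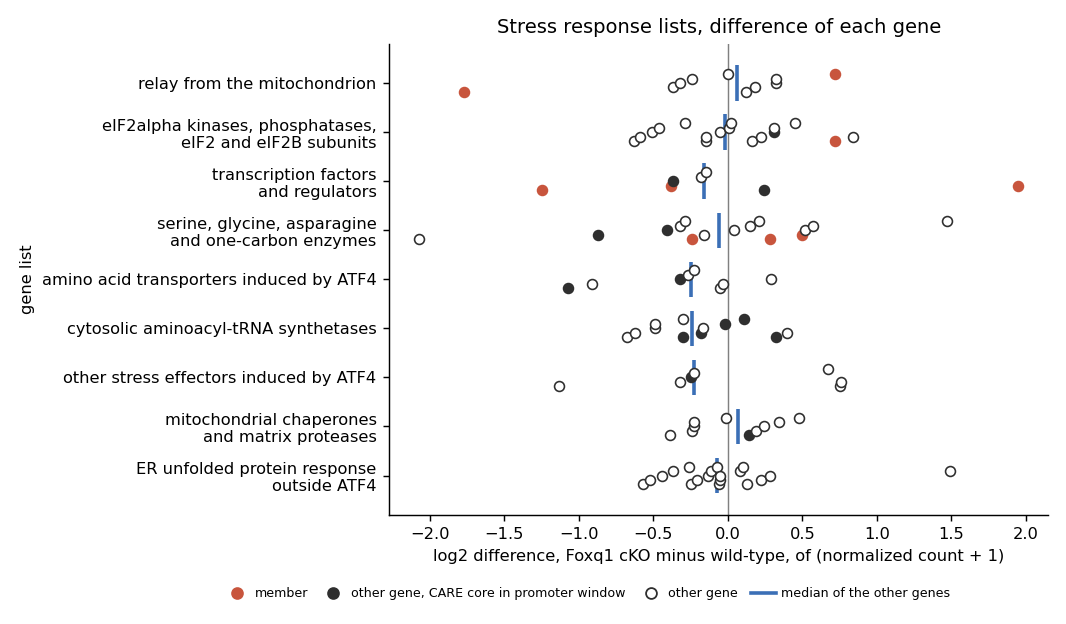
Log2 difference between *Foxq1* cKO and wild-type for every gene of the 9 lists (1 point a gene), with members in red, other genes whose promoter window holds a CARE core filled and the median of the other genes as a blue line. *Oma1* at -1.77 stands alone at the low end of its list, *Asns* is drawn as a member although its window holds a CARE core, and the medians lie between -0.25 and 0.07.

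The response element was also sought in the promoters of the lists. None of the 6 relay genes and none of the 16 endoplasmic reticulum genes with a window had a CARE core. Of all 27025 genes with a window, 1219 (4.51%) had a CARE core. Over the 9 lists 20 genes had a CARE core in a window, among them 5 aminoacyl-tRNA synthetases of 7 with a window. A few are shown because they hold the pattern TGATGNAA, though not the same 8 letters as *Asns*, which was higher in both *Foxq1* cKO samples, while these 3 genes, chosen after their values were seen, were lower in both.
*Slc1a4*, core across the start at -4 to 4, opposite strand, chr11:20332699-20332728, minus strand: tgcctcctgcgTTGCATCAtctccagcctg
*Slc7a11*, first core at -66 to -59, chr3:50443661-50443690, minus strand: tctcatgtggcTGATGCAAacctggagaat
*Slc7a11*, second core at -47 to -40, opposite strand, chr3:50443642-50443671, minus strand: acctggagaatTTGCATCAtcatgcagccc
*Atf3*, core at -110 to -103, opposite strand, chr1:191183425-191183454, minus strand: ccttctcgcacTTGCATCAccaagtccgcg

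Of these 20 genes 15 could be tested, *Asns* included. Groups were separate in the lower direction for 6 of them (among them *Atf3*, *Got1*, *Pycr1*, *Slc1a4* and *Slc7a11*) and in the higher direction for *Asns* only, beside 18% of all genes tested in each direction. Of the 15 genes, 9 had a log2 difference below 0. Below 0 were also 6149 of all 12472 genes tested and 133 of the 246 tested genes with a CARE core in any window. The median log2 difference of the 15 was -0.18, beside -0.07 over the 246 tested genes with a CARE core in any window and 0.009 over all genes tested. Of the 246 genes, 22% were separate in the lower and 15.9% in the higher direction. These are descriptions of letters in a window and do not show that a factor binds there.

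The genes whose centred log2 profile over the 4 samples was closest to that of *Oma1* were *Kcnk1*, *Fam217b*, *Zfp184*, *Il27ra* and *Det1*, at root mean square differences of 0.0637, 0.110, 0.111, 0.113 and 0.116. *Kcnk1*, which encodes a potassium channel, had 115 and 161 normalized counts in wild-type against 35.9 and 47.8 in *Foxq1* cKO. *Il27ra*, a cytokine receptor subunit, had 475 and 561 against 124 and 156. The nearest member was *Atf4*, at 0.766. The genes named here were picked as the closest of all genes tested, so the greater distance of the members follows from that choice. The likeness rests on 4 samples, uses the same contrast that selected *Oma1*, and carries no test.

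**Figure D4:**
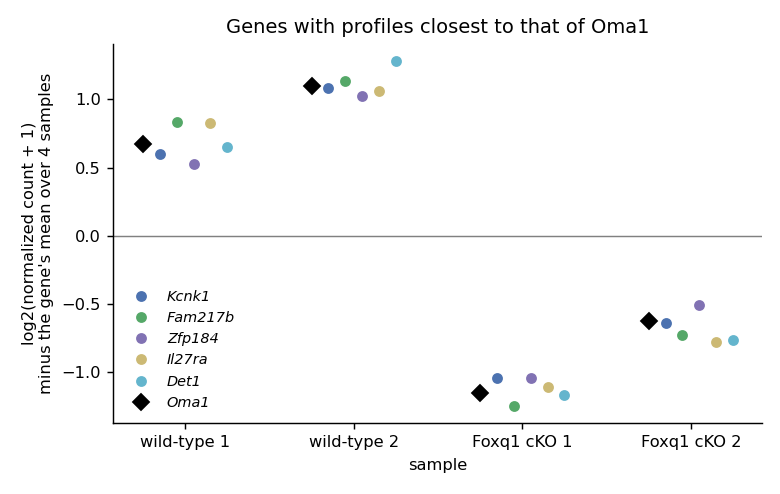
Log2 of the normalized count plus 1, less the gene's mean over the 4 samples, for *Oma1* (black diamonds) and the 5 closest genes (coloured circles) in each sample. All 6 genes lie above 0 in the wild-type samples and below 0 in the *Foxq1* cKO samples.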

How the data were processed

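RNA-seq of 2 wild-type and 2 *Foxq1* cKO samples was analysed from 1 deposited table. The submitters' processing notes name Bowtie2 2.2.3, TopHat2 2.0.12, HTSeq 0.6.0 and the build mm9, with no roles given. The authors deposited a normalized signal per gene, equal to read counts divided by 1 size factor per sample (1.19, 1.00, 0.919 and 0.983). Its 1207361 lines repeat each gene and were reduced to 12693 symbols. Only genes with at least 1 read in every sample have a row, so a gene lost completely in 1 sample could not be measured.

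Values were log2 transformed after adding a pseudocount of 1 and tested with limma 3.58.1 (lmFit, eBayes with a trend, R 4.3.3) over the 12472 genes whose mean reached 10, with Benjamini-Hochberg adjustment over all of them. Alternatives were other pseudocounts, filters and scalings, eBayes without a trend, edgeR 4.0.16 and DESeq2 1.42.0 on the recovered reads, the replicate number as a block and each sample left out. The fits were first run on simulated data, where only the median estimate over the changed genes was required to lie near the simulated difference. That check set no requirement on how many changed genes were called. The members and lists were chosen with earlier results of these data known. Named in each list were genes with an unadjusted p under 0.05 and the highest and lowest difference, besides the 5 genes with the profile nearest to *Oma1*, with others named after their values were seen (*Dele1*, *Ppp1r15a*, *Phgdh*, *Slc3a2*, *Hspd1*, *Hspe1*, *Hspa5*, *Got1*, *Pycr1*). The list entry *Ero1l* was read as *Ero1a*. Exon lengths came from GENCODE M21 (GRCm38) through gene identifiers. Promoter windows came from RefSeq (GRCm38.p6), no coordinate of the mm9 build was used, and 1 window is not reported here.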

Additional observations from a re-analysis of the deposited data

How the results depend on the processing

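Over the 10 alternatives that kept all 4 samples, no member changed sign (*Atf5* did not pass the stricter filter on low values and has no value there), and the log2 difference of *Oma1* lay between -1.81 and -1.74. DESeq2 on the recovered reads called 59 genes at an adjusted p under 0.05, where limma and the other alternatives called 0, and the cause was not tested. Quantile normalization moved the median of the aminoacyl-tRNA synthetases from -0.239 to -0.166, that of the other stress effectors from -0.229 to -0.122 and that of the eIF2 list from -0.02 to 0.052. With each sample left out, which leaves 1 sample in a group that is assumed to vary like the rest, the count of genes at an unadjusted p under 0.05 ranged from 276 (without *Foxq1* cKO replicate 1) to 1576 (without wild-type replicate 2), that of higher genes from 66 to 984 and that of lower genes from 210 to 592. The log2 difference ranged from -3.09 to 0.58 for *Ddit3*, from -0.78 to 0.31 for *Psat1* and from -0.01 to 0.57 for *Shmt2*. List medians ranged from -0.099 to 0.228 for the relay, from -0.233 to -0.122 for serine and one-carbon enzymes, from -0.411 to -0.094 for transporters, from -0.254 to -0.178 for synthetases, from -0.344 to 0.063 for the other stress effectors, from -0.234 to -0.027 (without *Foxq1* cKO replicate 1) for transcription factors, from -0.043 to 0.043 for the eIF2 list and from -0.014 to 0.084 for mitochondrial chaperones.

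Replicate numbers 1 and 2 occur in each group, but no label ties them to a litter or day, and the deviations of same-numbered samples from their group means had a correlation of 0.0325 over 12472 genes. With the replicate number as a block limma called 693 genes at an unadjusted p under 0.05 against 651, and 0 at an adjusted p under 0.05.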
